A study of Mus musculus with 14 samples.

Results

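The semaphorin, plexin, neuropilin, ephrin and Eph receptor genes were described in 14 libraries of cultured mouse CD4 T cells. They were chosen by name alone: every row of the count table whose Entrez identifier belongs to a symbol that starts with Sema or Plxn, to Nrp1 or Nrp2, or to a numbered Efna, Efnb, Epha or Ephb gene. The rule found 54 of 27179 rows, namely 20 semaphorins, 10 plexins (counting the antisense RNA gene Plxna4os1), 2 neuropilins, 8 ephrins and 14 Eph receptors. The rule itself uses no measured value, though it was set with earlier results of these data known.

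Semaphorins are secreted or membrane-bound proteins first known as cues that steer growing axons, and several of them act between immune cells. Their main receptors are the plexins, whose intracellular part acts on signalling enzymes inside the cell. The neuropilins serve as co-receptors for secreted semaphorins and for vascular endothelial growth factors. Ephrins are ligands fixed to the cell surface, the A type by a lipid anchor and the B type by a membrane-spanning segment. They bind Eph receptor tyrosine kinases on neighbouring cells, with signals running into both cells.

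All libraries came from naive CD4 T cells of C57BL/6 mice, with no other allele named. The cells were activated for 3.5 days in vitro on plate-bound antibodies against CD3 and CD28, stained, and sorted by flow cytometry before RNA was isolated. Each SENSE mRNA library was made from 100 ng of RNA. Th1 (5 libraries) is the T helper state that makes interferon-gamma. TfhA (4 libraries) was cultured towards the follicular helper state with TGF-β blocked. Tfh5 (5 libraries) is the Tfh culture with 5 ng/ml TGF-β. The sources used here do not give the age and sex of the mice, the full cytokine mixtures or the gate of the sort. They also do not say whether each library had its own animal or culture, so the p-values measure only the spread between these libraries, which may be technical.

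Library totals ran from 8805921 to 16108059 counts. All 10 CD4 T cell markers, among them Cd3e and Cd4, were present in every group, with summed levels of 5092 to 5517 CPM in Th1, 5361 to 6280 CPM in TfhA and 7449 to 7853 CPM in Tfh5. A CPM is the count scaled to a library of 1000000 counts, with TMM library sizes. Markers of other cells were low: 8 B cell markers summed to 2.19 to 4.18 CPM in Th1, 6.26 to 11.5 CPM in TfhA and 0.971 to 1.999 CPM in Tfh5, with Pax5 at 0 in Th1. The 12 myeloid and dendritic markers summed to between 4.19 and 9.74 CPM in all libraries, with Adgre1, Clec9a and Siglech at 0. Cd68 made up the largest share of that sum in each group, and 4 of these markers were tested. Cybb had means of 0.166, 1.54 and 0 CPM in Th1, TfhA and Tfh5 and was called higher in TfhA than in Th1 and lower in Tfh5 than in either (adjusted p = 0.000226, 3.35e-06 and 0.0111). Xcr1, with 0.12, 0.271 and 2.01 CPM, was called higher in Tfh5 against TfhA and against Th1 (adjusted p = 0.000192 and 2.54e-06). Flt3, with 0.686, 1.29 and 0.414 CPM, was lower in Tfh5 than in TfhA (adjusted p = 0.0232). The 6 markers of CD8 T and NK cells summed to between 9.40 and 35.9 CPM, mostly Cd8b1, and neither of the 2 that were tested passed in any comparison.

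Of the 54 genes, 36 reached 1 CPM in at least 1 library: 16 semaphorins, 6 plexins, both neuropilins, 7 ephrins and 5 Eph receptors. In 26 of them every library of at least 1 group reached 1 CPM. The group mean was at least 1 CPM for 25 genes in Th1, 21 in TfhA and 23 in Tfh5, and at least 10 CPM in some group for 15 genes. Of the 18 that stayed under 1 CPM, 6 had no count in any library (Sema5b, Epha5, Epha6, Epha8, Ephb1 and Plxna4os1), and 4 came above 0.5 CPM in a library: Plxnb3 (highest 0.983 CPM), Sema5a (0.822 CPM), Sema3e (0.650 CPM) and Plxna2 (0.523 CPM). The other 8 stayed at or under 0.381 CPM.

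The groups were compared with edgeR's quasi-likelihood test in one fit, which held 13075 genes, 32 of the 36 among them. Efnb2, Ephb2, Sema3a and Epha7 did not pass its filter on low counts. Between the TGF-β and the TGF-β-blocked cultures, Tfh5 had 11 of these genes higher and 10 lower at an adjusted p under 0.05, which leaves 11 that missed it. Of all tested genes, 27.4% were higher in Tfh5 and 30.1% were lower, so the members' 34.4% and 31.2% lay near the background. Between TfhA and Th1, TfhA had 4 higher, 15 lower and 13 that missed the threshold. These are 12.5% and 46.9% of the members, against 23.2% of all tested genes higher and 21.6% lower. Between Tfh5 and Th1, Tfh5 had 9 higher, 16 lower and 7 that missed it. The shares are 28.1% and 50% of the members, beside 31.5% and 33% of all tested genes. The median log2 fold change of the 32 genes was 0.07, -0.51 and -0.59 in these comparisons, in that order, beside -0.01, 0.03 and -0.01 over all tested genes. A gene entered the fit partly through the group in which it was high, so these shares are descriptions. The comparisons share libraries and are set side by side only.

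**Figure D1:**
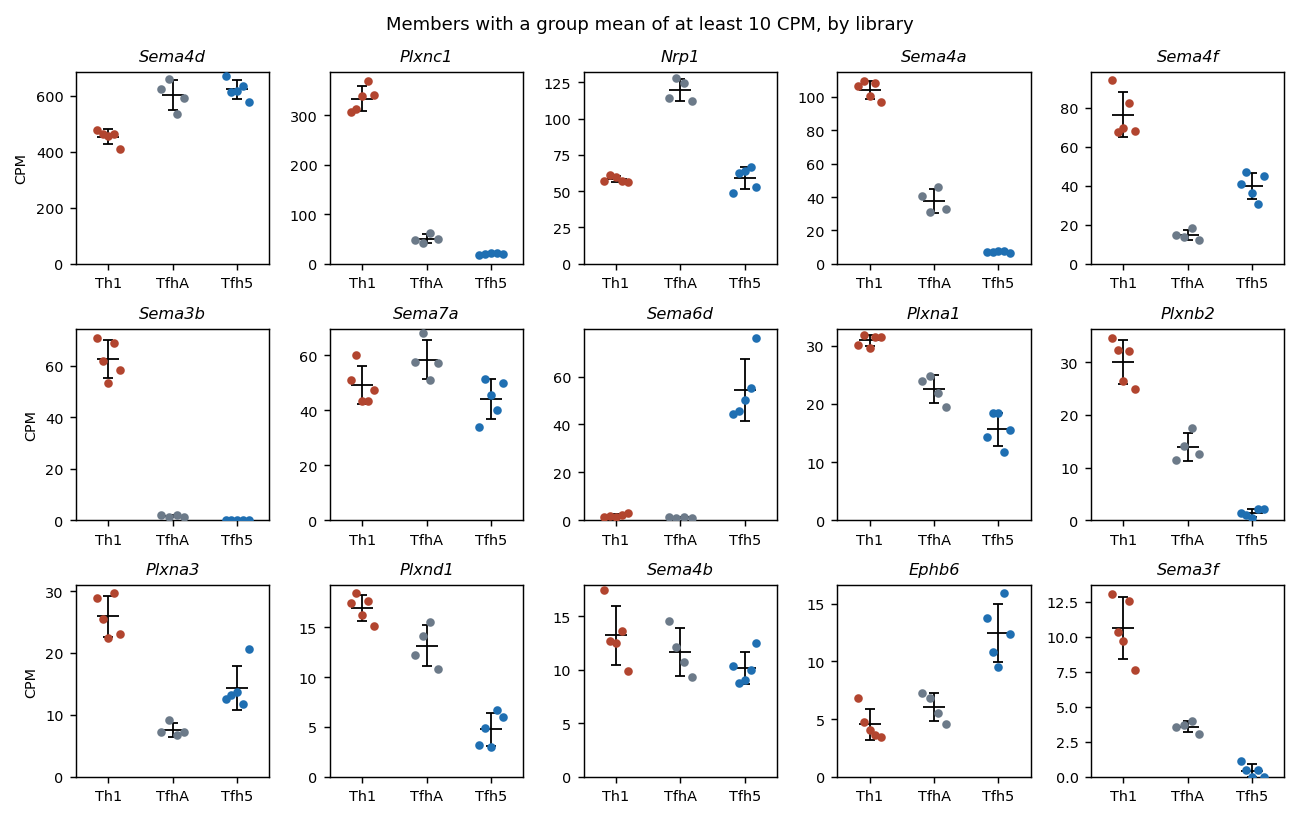
CPM in each library (y axis, linear, from 0) of the 15 genes with a group mean of at least 10 CPM, in Th1, TfhA and Tfh5; points are libraries, and the black bar and whiskers are the mean ± SD. Sema3b and Plxnc1 were highest in Th1, Nrp1 in TfhA, and Sema6d in Tfh5, where its libraries lay between 44.5 and 76.2 CPM.

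The semaphorins of the membrane-bound type carried most of the counts. Sema4d, a lymphocyte surface semaphorin that binds Plxnb1 and the B cell receptor CD72, stood at 477, 463, 456, 463 and 410.1 CPM in the Th1 libraries. In TfhA, Sema4d was at 622, 661, 536 and 592 CPM, and in Tfh5 at 671, 613, 618, 635 and 578 CPM. Every TfhA and Tfh5 library was above every Th1 library, and TfhA and Tfh5 overlapped. Sema4d was higher than in Th1 by 1.33-fold in TfhA (log2 0.41 ± 0.09, adjusted p = 0.000359) and by 1.37-fold in Tfh5 (log2 0.46 ± 0.08, adjusted p = 2.47e-05). TfhA and Tfh5 did not differ past the threshold (log2 0.05 ± 0.09, adjusted p = 0.663). Library values are given in the order of their replicate numbers, 1 to 5, with no replicate 3 in TfhA. Here and below, the value after ± a log2 fold change is its SE from the fit, over 5 Th1, 4 TfhA and 5 Tfh5 libraries. In bulk samples, fewer cells that express a gene and less RNA per cell cannot be told apart.

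Sema4a, which is known in the mouse for priming T cells and for promoting Th1 responses, held 106, 109, 101, 108 and 96.8 CPM in the Th1 libraries. For Sema4a in TfhA the values were 40.7, 31.1, 45.9 and 32.7 CPM, and in Tfh5 6.76, 6.83, 7.74, 7.4 and 6.2 CPM. The 3 groups were fully separated, in the order Th1, TfhA and Tfh5. Its level fell from Th1 to TfhA by 2.77-fold (log2 -1.47 ± 0.11, adjusted p = 1.25e-10) and was a further 5.38-fold lower in Tfh5 than in TfhA (log2 -2.43 ± 0.13, adjusted p = 2.28e-14). Between Th1 and Tfh5 the fold was 14.9 (log2 -3.90 ± 0.12, adjusted p = 5.88e-19). Sema4f, a transmembrane semaphorin studied mainly in neurons, had another order, with 94.1, 67.4, 69.6, 82.6 and 68.3 CPM in the Th1 libraries. Sema4f had 14.9, 13.6, 18.3 and 12.2 CPM in TfhA and 41.1, 47.1, 36, 30.4 and 45 CPM in Tfh5. It was lowest in TfhA in every library: 5.19-fold below Th1 (log2 -2.38 ± 0.15, adjusted p = 3.38e-12). Tfh5 was 2.71-fold above TfhA (log2 1.44 ± 0.15, adjusted p = 8.77e-09) and still 1.91-fold below Th1 (log2 -0.94 ± 0.13, adjusted p = 6.69e-07).

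Sema7a, a lipid-anchored semaphorin that signals through Plxnc1 and through integrins, was among the most even genes, with 51, 60.2, 43.5, 43.5 and 47.6 CPM in the Th1 libraries. In TfhA, Sema7a was at 57.6, 68, 51 and 57.1 CPM, and in Tfh5 at 34, 51.5, 45.6, 40.1 and 49.8 CPM. The groups overlapped in all comparisons. It was 1.32-fold lower in Tfh5 than in TfhA (log2 -0.40 ± 0.13, adjusted p = 0.00877). It passed in neither comparison with Th1 (log2 0.25 ± 0.13, adjusted p = 0.111 in TfhA; log2 -0.15 ± 0.12, adjusted p = 0.273 in Tfh5). Without Th1 replicate 2 it was called higher in TfhA than in Th1 (log2 0.33, adjusted p = 0.0427; over all alternatives 0.0427 to 0.336). Sema4b, a transmembrane semaphorin also found on lymphocytes, read 17.5, 12.7, 12.5, 13.6 and 9.9 CPM in the Th1 libraries. For Sema4b in TfhA the values were 14.5, 12.1, 10.7 and 9.34 CPM, and in Tfh5 10.4, 8.77, 9.06, 9.96 and 12.6 CPM. Its groups overlapped, and only the comparison of Tfh5 with Th1 passed, narrowly (log2 -0.38 ± 0.17, adjusted p = 0.0481). That call was lost in 11 of 19 alternatives, 9 of them the omission of 1 library (Th1 replicates 1 to 4, TfhA replicate 2 or Tfh5 replicates 1 to 4). Without Th1 replicate 1 the log2 value was -0.26 (adjusted p = 0.179), and over all alternatives the adjusted p ran from 0.0196 to 0.179. Values for the others were log2 -0.17 ± 0.18, adjusted p = 0.44 between TfhA and Th1 and log2 -0.21 ± 0.18, adjusted p = 0.339 between Tfh5 and TfhA.

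Sema4c, a ligand of Plxnb2, held 8.67, 5.69, 5.22, 7.91 and 6.4 CPM in the Th1 libraries. Sema4c had 0.379, 0.256, 0.974 and 0.425 CPM in TfhA and 0.762, 1.53, 0.944, 0.854 and 1.64 CPM in Tfh5. All Th1 libraries were above all others, and Sema4c fell by 13.6-fold in TfhA (log2 -3.77 ± 0.37, adjusted p = 1.17e-08) and 5.82-fold in Tfh5 (log2 -2.54 ± 0.30, adjusted p = 6.67e-08). The difference between the follicular helper cultures, where the libraries overlapped (log2 1.23 ± 0.43, adjusted p = 0.0165), was not called without TfhA replicate 1 (log2 1.10, adjusted p = 0.0548), without TfhA replicate 2 (log2 1.003, adjusted p = 0.0639) or with only these groups in the fit (log2 1.21, adjusted p = 0.0604). Its adjusted p ran from 0.00331 to 0.0639 over the alternatives. The exons of Sema4c overlap D430040D24Rik on the other strand by 334 bases, and whether reads were counted by strand is not stated in these sources. Sema4g, also a Plxnb2 ligand, followed Sema4c with 3.49, 2.01, 2.5, 4.65 and 2.13 CPM in the Th1 libraries. In TfhA, Sema4g was at 0.833, 0.682, 1.08 and 0 CPM, and in Tfh5 at 0.857, 1.63, 1.23, 0.285 and 1.27 CPM. Its Th1 libraries all lay above TfhA and Tfh5. It was 4.45-fold lower in TfhA (log2 -2.15 ± 0.51, adjusted p = 0.00139) and 2.79-fold lower in Tfh5 (log2 -1.48 ± 0.45, adjusted p = 0.00545). TfhA and Tfh5 were not distinguished (log2 0.67 ± 0.55, adjusted p = 0.312).

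Among the transmembrane semaphorins that bind A-type plexins, Sema6d and Sema6a went opposite ways between the follicular helper cultures. Sema6d, a partner of Plxna1, stood at 1.19, 1.8, 1.44, 2.15 and 2.89 CPM in the Th1 libraries. For Sema6d in TfhA the values were 1.51, 1.02, 1.41 and 1.06 CPM, and in Tfh5 44.5, 45.6, 50.3, 55.2 and 76.2 CPM. Every Tfh5 library was far above every other library. The level was 42.9-fold above TfhA (log2 5.42 ± 0.24, adjusted p = 1.53e-15) and 28.9-fold above Th1 (log2 4.85 ± 0.20, adjusted p = 1.45e-16). TfhA and Th1 overlapped and did not differ past the threshold (log2 -0.57 ± 0.30, adjusted p = 0.121). Sema6a, which binds Plxna2 and Plxna4, read 2.37, 2.29, 3.4, 2.22 and 2.21 CPM in the Th1 libraries. Sema6a had 5.15, 3.58, 8.88 and 4.78 CPM in TfhA and 0.0952, 0.102, 0.189, 0 and 0.0747 CPM in Tfh5. TfhA was highest and Tfh5 nearly empty, with 5 counts over its 5 libraries, and no groups overlapped. Sema6a was 2.23-fold higher in TfhA than in Th1 (log2 1.16 ± 0.30, adjusted p = 0.00301) and 54.9-fold lower in Tfh5 than in TfhA (log2 -5.78 ± 0.47, adjusted p = 1.5e-10). It was 24.6-fold lower in Tfh5 than in Th1 (log2 -4.62 ± 0.49, adjusted p = 9.8e-09). The summed B cell markers were also highest in TfhA and lowest in Tfh5. Of the 8 B cell markers, 6 were tested. In TfhA against Th1, 3 were higher and 0 lower, with Cd79b and Ms4a1 among the higher. In Tfh5 against TfhA, 0 were higher and 4 lower, with Cd79b, Ms4a1 and Cd22 among the lower. The 3 and the 4 are 50% and 66.7% of the 6, beside 23.2% and 30.1% of all tested genes. Some B cell markers had other orders: Vpreb3 had its highest mean in Th1 (0.913, 0.508 and 0.122 CPM) and Blk, which was not tested, in Tfh5 (0.0443, 0.172 and 0.307 CPM). The myeloid marker Cybb, given above, had the order of Sema6a, and so did the means of Flt3. Other markers of that list had other orders. Xcr1 had its highest mean in Tfh5. Cd68, the largest of them, had it in Th1, with 4.63, 3.64 and 3.81 CPM in Th1, TfhA and Tfh5. The part of such cells in the Sema6a values was not tested.

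Sema6b, a ligand of Plxna4, had 9.48, 8.25, 6.8, 7.98 and 8.07 CPM in the Th1 libraries. In TfhA, Sema6b was at 2.65, 1.45, 0.866 and 1.06 CPM, and in Tfh5 at 0.762, 0.51, 1.7, 1.04 and 0.598 CPM. All Th1 libraries were above the rest, by 5.19-fold over TfhA (log2 -2.38 ± 0.32, adjusted p = 1.29e-06) and 8.77-fold over Tfh5 (log2 -3.13 ± 0.31, adjusted p = 3.79e-09). The difference between Tfh5 and TfhA (log2 -0.76 ± 0.37, adjusted p = 0.0868) passed without TfhA replicate 4 (log2 -0.94, adjusted p = 0.0406) and without Tfh5 replicate 3 (log2 -1.09, adjusted p = 0.0185), in a range of 0.0185 to 0.525 over all alternatives. Sema6c, a further transmembrane semaphorin, was low everywhere, at 0.935, 0.416, 0.756, 0.416 and 0.381 CPM in the Th1 libraries. For Sema6c in TfhA the values were 0, 0.171, 0.325 and 0.106 CPM, and in Tfh5 1.14, 1.33, 1.42, 1.8 and 1.79 CPM. Its groups were separated in the order Tfh5, Th1 and TfhA, with only 6 counts over the TfhA libraries. It was 10.1-fold higher in Tfh5 than in TfhA (log2 3.33 ± 0.61, adjusted p = 5.19e-05) and 2.54-fold higher than in Th1 (log2 1.34 ± 0.43, adjusted p = 0.00892). It was 3.96-fold lower in TfhA than in Th1 (log2 -1.99 ± 0.66, adjusted p = 0.0166). Single TfhA libraries moved these values. Without replicate 4 the folds against Tfh5 and Th1 were 15.4 and 6.06 (adjusted p = 6.88e-05 and 0.00955; the first ranged from 1.51e-05 to 0.000485 over the alternatives). Without replicate 1 the TfhA and Th1 difference was not called (log2 -1.51, adjusted p = 0.0717; range over the alternatives 0.00955 to 0.0717).

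The secreted semaphorins did not share an order of the groups. Sema3b, known as a tumour suppressor in human lung, held 70.7, 61.6, 53.3, 68.7 and 58.1 CPM in the Th1 libraries. Sema3b had 1.89, 1.19, 2.17 and 1.27 CPM in TfhA and 0.19, 0.102, 0.189, 0 and 0.149 CPM in Tfh5. All groups were separated, and 7 counts remained over the 5 Tfh5 libraries. Sema3b was 38.1-fold lower in TfhA than in Th1 (log2 -5.25 ± 0.19, adjusted p = 8.3e-17) and 11.9-fold lower again in Tfh5 (log2 -3.57 ± 0.40, adjusted p = 4.02e-08). The fitted fold between Tfh5 and Th1 was 453 (log2 -8.82 ± 0.25, adjusted p = 6.71e-20). Sema3f, a ligand of Nrp2, followed the same order at a lower level, with 13, 10.3, 9.68, 12.6 and 7.62 CPM in the Th1 libraries. In TfhA, Sema3f was at 3.56, 3.67, 4.01 and 3.08 CPM, and in Tfh5 at 1.14, 0.51, 0, 0.474 and 0 CPM. No groups overlapped, and Tfh5 held 22 counts in all. Sema3f was 2.97-fold lower in TfhA than in Th1 (log2 -1.57 ± 0.33, adjusted p = 0.0004). It was 8.62-fold lower in Tfh5 than in TfhA (log2 -3.11 ± 0.46, adjusted p = 2.82e-06) and 25.6-fold lower than in Th1 (log2 -4.68 ± 0.41, adjusted p = 3.48e-10). Without Tfh5 replicate 1 the last folds were 15.0 and 44.8 (adjusted p = 1.9e-07 and 5.22e-11; ranges over the alternatives 2.39e-13 to 0.00011 and 1.48e-32 to 1.06e-08).

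Sema3d, a secreted semaphorin that binds Nrp1, was found mainly in Tfh5, with 0.249, 0.139, 0.605, 0.139 and 0.609 CPM in the Th1 libraries. For Sema3d in TfhA the values were 0.379, 0.512, 0 and 0.106 CPM, and in Tfh5 2.95, 2.24, 2.36, 2.28 and 4.41 CPM. All Tfh5 libraries were above all others, by 10.3-fold over TfhA (log2 3.37 ± 0.57, adjusted p = 1.86e-05) and 8.19-fold over Th1 (log2 3.03 ± 0.49, adjusted p = 6.87e-06). TfhA and Th1 gave log2 -0.33 ± 0.68, adjusted p = 0.724. Sema3c, which uses both neuropilins and Plxnd1, read 0.125, 0.485, 0.68, 0.0694 and 0.381 CPM in the Th1 libraries. Sema3c had 2.65, 1.54, 1.3 and 2.65 CPM in TfhA and 0.857, 2.04, 2.27, 3.04 and 2.62 CPM in Tfh5. It was higher than in Th1 in both follicular helper cultures, 5.85-fold in TfhA (log2 2.55 ± 0.50, adjusted p = 0.000214) and 6.21-fold in Tfh5 (log2 2.63 ± 0.48, adjusted p = 4.03e-05). These cultures overlapped (log2 0.09 ± 0.43, adjusted p = 0.884). Sema3a, the best known axon repellent, was outside the fit and had 51 counts over Th1, 21 over TfhA and 2 over Tfh5. The ratio of CPM was 19.6 between Th1 and Tfh5, with a 95% counting interval of 5.16 to 166, and 13.2 between TfhA and Tfh5 (3.23 to 116). These intervals cover counting error only, and 1 TfhA library held 1.52 CPM while another held none.

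Promoter sequences are shown for 6 genes, picked after their values were seen, that were called at least 4-fold apart in some comparison, 3 of them higher and 3 lower in Tfh5. The sequences are from RefSeq (GRCm38.p6). Each window runs from 250 bases before to 50 bases after the first listed start, 5′ to 3′ along the gene, in lower case. Capitals mark matches on either strand to a SMAD (CAGAC), T-box (GGTGTGA) or STAT motif (TTCNNNGAA) or to part of a Maf recognition motif (TGCTGAC). The first 3 belong to genes higher in Tfh5: Sema6d at chr2:124089719-124090018, plus strand, Sema3d at chr5:12382916-12383215, plus strand, and Nrp2 at chr1:62703067-62703366, plus strand.
Sema6d: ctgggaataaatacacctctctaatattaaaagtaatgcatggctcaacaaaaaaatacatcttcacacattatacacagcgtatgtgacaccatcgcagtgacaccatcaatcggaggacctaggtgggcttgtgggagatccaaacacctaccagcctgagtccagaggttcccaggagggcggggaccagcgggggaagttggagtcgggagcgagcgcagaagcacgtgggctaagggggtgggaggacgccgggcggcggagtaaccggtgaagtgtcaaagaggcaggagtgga
Sema3d: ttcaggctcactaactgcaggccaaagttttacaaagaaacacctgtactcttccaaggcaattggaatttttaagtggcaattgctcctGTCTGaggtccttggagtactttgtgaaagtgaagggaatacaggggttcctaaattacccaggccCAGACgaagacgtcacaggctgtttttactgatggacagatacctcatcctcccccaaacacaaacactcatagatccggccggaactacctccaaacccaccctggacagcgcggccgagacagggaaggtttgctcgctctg
Nrp2: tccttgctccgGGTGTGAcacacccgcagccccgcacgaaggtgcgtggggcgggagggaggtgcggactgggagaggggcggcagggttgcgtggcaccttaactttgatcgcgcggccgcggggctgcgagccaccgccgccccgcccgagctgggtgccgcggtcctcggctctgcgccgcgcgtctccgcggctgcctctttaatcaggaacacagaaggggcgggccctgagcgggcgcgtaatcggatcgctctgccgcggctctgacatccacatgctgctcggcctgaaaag
The other 3 belong to genes highest in Th1 and lowest in Tfh5: Sema4a at chr3:88461133-88461432, minus strand, Plxnc1 at chr10:94944796-94945095, minus strand, and Plxnb2 at chr15:89180739-89181038, minus strand.
Sema4a: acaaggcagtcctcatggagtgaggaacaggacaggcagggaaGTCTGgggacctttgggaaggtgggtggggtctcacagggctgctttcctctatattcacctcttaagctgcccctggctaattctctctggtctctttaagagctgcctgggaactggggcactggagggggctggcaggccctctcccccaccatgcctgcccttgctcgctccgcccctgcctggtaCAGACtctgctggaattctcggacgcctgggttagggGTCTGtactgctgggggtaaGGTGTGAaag
Plxnc1: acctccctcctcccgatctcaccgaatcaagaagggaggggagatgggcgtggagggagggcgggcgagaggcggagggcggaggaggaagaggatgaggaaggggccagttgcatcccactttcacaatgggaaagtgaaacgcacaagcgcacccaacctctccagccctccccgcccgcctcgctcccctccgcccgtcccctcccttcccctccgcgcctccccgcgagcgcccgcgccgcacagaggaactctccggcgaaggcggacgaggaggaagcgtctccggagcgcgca
Plxnb2: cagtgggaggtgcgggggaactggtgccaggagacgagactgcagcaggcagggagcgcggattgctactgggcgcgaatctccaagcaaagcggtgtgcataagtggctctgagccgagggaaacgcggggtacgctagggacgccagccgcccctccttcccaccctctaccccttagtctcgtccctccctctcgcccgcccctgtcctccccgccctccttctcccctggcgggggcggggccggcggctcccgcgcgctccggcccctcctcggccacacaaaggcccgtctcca
Sema3d had 2 SMAD matches, Sema4a had 3 SMAD matches and 1 T-box match, and Nrp2 had 1 T-box match. No matches shared a base, and the windows of Sema6d, Plxnc1 and Plxnb2 held no match. Of all 32851 promoter windows in the RefSeq table, 49.6% hold the SMAD letters, 4.67% the Maf letters, 3.98% the T-box letters and 8.30% the STAT letters. RefSeq lists 4 starts for Sema4a and 2 each for Sema6d and Plxnb2, and which start these cells used was not measured. A match describes the letters of the window only.

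Of the 6 tested plexins, the receptors, 5 had their highest group mean in Th1. In TfhA 4 were lower than in Th1 and 0 higher, where 21.6% of all tested genes were lower and 23.2% higher. In Tfh5 5 were lower than in Th1 and 1 higher, where 33% of all tested genes were lower and 31.5% higher. Against TfhA, Tfh5 had 4 lower and 2 higher, beside 30.1% and 27.4% of all tested genes. Plxnc1, the receptor of Sema7a, stood at 306, 312, 339.7, 369 and 341 CPM in the Th1 libraries. In TfhA, Plxnc1 was at 48.6, 41.8, 62.7 and 49.7 CPM, and in Tfh5 at 17.1, 19, 21.6, 22.2 and 19.4 CPM. The 3 groups did not overlap. Plxnc1 was 6.59-fold lower in TfhA than in Th1 (log2 -2.72 ± 0.11, adjusted p = 1.54e-15). It was 2.55-fold lower in Tfh5 than in TfhA (log2 -1.35 ± 0.11, adjusted p = 2.07e-10) and 16.8-fold lower than in Th1 (log2 -4.07 ± 0.11, adjusted p = 6.71e-20). Plxnb2, the receptor of Sema4c that also binds Sema4a and Sema4d, held 34.7, 32.4, 26.5, 32.2 and 25 CPM in the Th1 libraries. For Plxnb2 in TfhA the values were 11.5, 14.1, 17.5 and 12.5 CPM, and in Tfh5 1.33, 0.918, 0.377, 2.18 and 2.17 CPM. The same order, Th1, TfhA and Tfh5, was seen without overlap. The fold was 2.17 between TfhA and Th1 (log2 -1.12 ± 0.20, adjusted p = 7.28e-05). It was 9.66-fold between Tfh5 and TfhA (log2 -3.27 ± 0.26, adjusted p = 6.39e-11) and 21-fold between Tfh5 and Th1 (log2 -4.39 ± 0.24, adjusted p = 4.14e-14).

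Plxna1, the co-receptor of secreted semaphorins and of Sema6d, read 30.1, 31.8, 29.6, 31.6 and 31.5 CPM in the Th1 libraries. Plxna1 had 23.9, 24.8, 21.9 and 19.5 CPM in TfhA and 14.3, 18.4, 18.4, 11.7 and 15.5 CPM in Tfh5. Its groups were separated but close, with 1.37-fold between TfhA and Th1 (log2 -0.45 ± 0.13, adjusted p = 0.00642). There was 1.45-fold between Tfh5 and TfhA (log2 -0.53 ± 0.13, adjusted p = 0.00147) and 1.98-fold between Tfh5 and Th1 (log2 -0.98 ± 0.12, adjusted p = 2.04e-07). Its exons overlap the gene Gm26811 on the other strand by 970 bases. Plxna3, which works with Nrp2 for Sema3f, held 28.9, 25.4, 22.5, 29.8 and 23 CPM in the Th1 libraries. In TfhA, Plxna3 was at 7.2, 9.13, 6.71 and 7.22 CPM, and in Tfh5 at 12.6, 13.2, 13.7, 11.8 and 20.6 CPM. TfhA was lowest in every library, 3.42-fold below Th1 (log2 -1.77 ± 0.17, adjusted p = 7.82e-09). Tfh5 lay between, 1.9-fold above TfhA (log2 0.93 ± 0.17, adjusted p = 6.66e-05) and 1.8-fold below Th1 (log2 -0.85 ± 0.15, adjusted p = 2.8e-05).

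Plxnd1, a receptor of Sema3e and Sema4a that guides thymocytes and vessels, stood at 17.4, 18.4, 16.3, 17.6 and 15.1 CPM in the Th1 libraries. For Plxnd1 in TfhA the values were 12.2, 14.1, 15.5 and 10.8 CPM, and in Tfh5 3.24, 4.89, 3.02, 6.74 and 5.98 CPM. All Tfh5 libraries were below all others, 2.74-fold under TfhA (log2 -1.45 ± 0.20, adjusted p = 9.31e-07) and 3.53-fold under Th1 (log2 -1.82 ± 0.19, adjusted p = 6.32e-09). TfhA and Th1 overlapped (log2 -0.37 ± 0.18, adjusted p = 0.109), and the difference was called when only these groups were fitted (log2 -0.39, adjusted p = 0.0234; range over the alternatives 0.0234 to 0.252). Plxnb1, the receptor with high affinity for Sema4d, was the plexin that was higher in Tfh5 than in Th1. It was at 2.15 ± 0.4 CPM (mean ± SD) in Th1, 3.45 ± 1.03 CPM in TfhA and 5.91 ± 2.79 CPM in Tfh5. Tfh5 was above Th1 in every library (log2 1.45 ± 0.30, adjusted p = 0.000144) and overlapped TfhA (log2 0.78 ± 0.31, adjusted p = 0.0352), which in turn overlapped Th1 (log2 0.67 ± 0.32, adjusted p = 0.0939). The call between Tfh5 and TfhA was lost without TfhA replicate 1, 2 or 5 and without Tfh5 replicate 2 or 5, with adjusted p = 0.0521 to 0.157 and log2 0.51 without Tfh5 replicate 2. Over all alternatives the adjusted p ran from 0.00756 to 0.157. The difference between TfhA and Th1 passed with only these groups in the fit (log2 0.65, adjusted p = 0.0496; range 0.0496 to 0.278). Plxnb1 shares 257 exon bases with Gm7628 on the other strand.

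The neuropilins behaved unlike each other. Nrp1, co-receptor for Sema3a and for vascular endothelial growth factor and a marker of regulatory T cells formed in the thymus, stood at 57.3, 60.9, 59.6, 57.1 and 56.3 CPM in the Th1 libraries. Nrp1 had 114, 128, 124 and 112 CPM in TfhA and 49, 62.5, 64.2, 66.4 and 52.8 CPM in Tfh5. Each TfhA library was above each library of the other groups. TfhA was 2.06-fold above Th1 (log2 1.04 ± 0.10, adjusted p = 3.39e-09), with Tfh5 2.03-fold below TfhA (log2 -1.02 ± 0.10, adjusted p = 1.97e-09). Th1 and Tfh5 overlapped, with a fitted difference near 0 (log2 0.02 ± 0.09, adjusted p = 0.88). Of 10 regulatory T cell markers, all tested, 2 were higher and 5 lower in TfhA than in Th1. These are 20% and 50%, beside 23.2% and 21.6% of all tested genes. In Tfh5, 4 were higher and 5 lower than in TfhA (40% and 50%, beside 27.4% and 30.1%). Against Th1, Tfh5 had 3 higher and 5 lower (30% and 50%, beside 31.5% and 33%). The 5 lower in TfhA than in Th1, and the 4 higher in Tfh5 than in TfhA, went the other way from Nrp1. The 2 that were higher in TfhA than in Th1 were also lower in Tfh5 than in TfhA, as Nrp1 was. These were Lrrc32, with means of 22.5, 36 and 6.75 CPM in Th1, TfhA and Tfh5 (log2 0.68 ± 0.19, adjusted p = 0.00492; log2 -2.43 ± 0.21, adjusted p = 3e-10), and Gpr83, with 2.62, 22.4 and 10.04 CPM (log2 3.09 ± 0.27, adjusted p = 9.08e-10; log2 -1.16 ± 0.24, adjusted p = 0.00022). Ikzf2 had 8.69, 9.92 and 5.3 CPM and was lower in Tfh5 than in TfhA (log2 -0.90 ± 0.22, adjusted p = 0.00127), with log2 0.19 ± 0.21, adjusted p = 0.505 between TfhA and Th1. The sum of the 10 was 7694 to 9148 CPM in Th1, 2997 to 3454 CPM in TfhA and 2665 to 3329 CPM in Tfh5, mostly Il2ra. Unlike Nrp1, Il2ra had its highest mean in Th1, with 7008, 2494 and 1750 CPM in Th1, TfhA and Tfh5. Foxp3 had a mean of 2.43, 2.24 and 4.19 CPM and passed in no comparison. The B cell marker sums and the means of Cybb and Flt3 given above were also highest in TfhA. The mean of Xcr1 was highest in Tfh5 and that of Cd68 in Th1. The part of these cells in the Nrp1 values was not tested.

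Nrp2, the co-receptor of Sema3f, was almost confined to Tfh5 among these libraries, with 0.187, 0, 0, 0.208 and 0.152 CPM in the Th1 libraries. In TfhA, Nrp2 was at 0.227, 0.341, 0.433 and 0 CPM, and in Tfh5 at 5.9, 5, 6.13, 5.69 and 2.91 CPM. The lowest Tfh5 library was above all 9 others. The fold was 19.5 against TfhA (log2 4.29 ± 0.53, adjusted p = 2e-07) and 41.9 against Th1 (log2 5.39 ± 0.52, adjusted p = 2.15e-09), with 11 counts over TfhA and 8 over Th1. TfhA and Th1 were not distinguished (log2 1.10 ± 0.78, adjusted p = 0.265). Nrp2 is also a gene of lymphatic vessels. The 12 endothelial and stromal markers summed to 25.0 to 29.9 CPM in Th1, 100.7 to 135 CPM in TfhA and 158 to 167 CPM in Tfh5, of which Pecam1, also a T cell surface gene, made up group means of 26.3, 118.6 and 162 CPM. Of the 12, 1 had a group mean of at least 1 CPM in Th1, and 2 had it in TfhA and in Tfh5. Only 2 were tested, and both were higher in TfhA than in Th1, beside 23.2% of all tested genes. In Tfh5, 1 was higher than in TfhA and 1 higher than in Th1, beside 27.4% and 31.5%, with 0 lower. Emcn and Col3a1 were at 0 in every library, and the group means of Cdh5, Tek and Vwf were at or under 0.0974 CPM. The part of endothelial and stromal cells in the Nrp2 values was not tested.

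**Figure D2:**
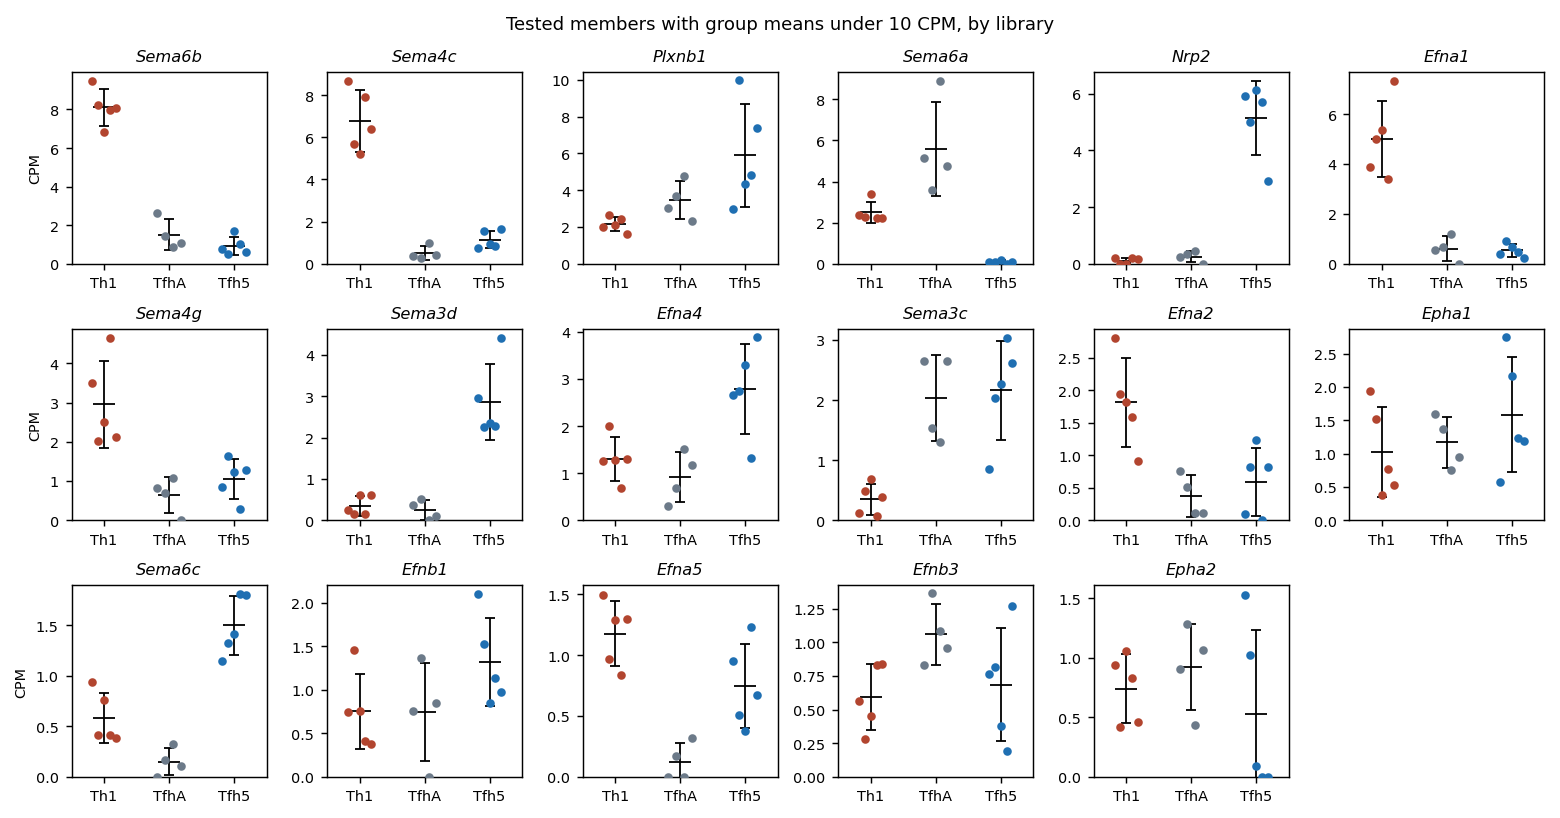
CPM in each library (y axis, linear, from 0, own scale per gene) of the 17 tested genes whose group means stayed under 10 CPM; points are libraries, bar and whiskers the mean ± SD. Nrp2, Sema3d and Sema6c were highest in Tfh5, Sema6a in TfhA, and Sema6b, Sema4c and Efna1 in Th1.

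The ephrins were low in all groups, and none had a group mean of 10 CPM. Efna1, the usual partner of Epha2, stood at 3.87, 4.99, 5.37, 3.4 and 7.31 CPM in the Th1 libraries. For Efna1 in TfhA the values were 0.53, 0.682, 1.19 and 0 CPM, and in Tfh5 0.381, 0.918, 0.66, 0.474 and 0.224 CPM. Its Th1 libraries were above all others, 8.2-fold over TfhA (log2 -3.04 ± 0.47, adjusted p = 1e-05) and 9.44-fold over Tfh5 (log2 -3.24 ± 0.44, adjusted p = 5.48e-07), and TfhA and Tfh5 overlapped (log2 -0.20 ± 0.57, adjusted p = 0.783). Efna2, an A-type ephrin, read 2.81, 1.94, 1.81, 1.59 and 0.914 CPM in the Th1 libraries. Efna2 had 0.757, 0.512, 0.108 and 0.106 CPM in TfhA and 0.0952, 0.816, 1.23, 0 and 0.822 CPM in Tfh5. Th1 was above TfhA in every library (4.48-fold, log2 -2.17 ± 0.64, adjusted p = 0.00787). Without TfhA replicate 1 this was 6.84-fold (adjusted p = 0.00701; range over the alternatives 0.00123 to 0.0316), while Th1 overlapped Tfh5 and was higher (log2 -1.59 ± 0.56, adjusted p = 0.0154). Tfh5 and TfhA gave log2 0.57 ± 0.72, adjusted p = 0.518.

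Efna5, an A-type ephrin that also binds Ephb2, held 1.5, 0.971, 1.28, 0.832 and 1.29 CPM in the Th1 libraries. In TfhA, Efna5 was at 0, 0.171, 0 and 0.318 CPM, and in Tfh5 at 0.952, 0.51, 0.377, 1.23 and 0.672 CPM. TfhA was lowest without overlap, with 5 counts in all. Efna5 was 9.4-fold lower in TfhA than in Th1 (log2 -3.23 ± 0.67, adjusted p = 0.000372) and 6.01-fold higher in Tfh5 than in TfhA (log2 2.59 ± 0.72, adjusted p = 0.00333). Without TfhA replicate 5 these folds were 17.4 and 11.1 (adjusted p = 0.00035 and 0.00169; ranges 0.00017 to 0.00296 and 0.00169 to 0.0185). Tfh5 and Th1 overlapped (log2 -0.65 ± 0.46, adjusted p = 0.226). Efna4, an A-type ephrin, was at 1.31 ± 0.468 CPM (mean ± SD) in Th1, 0.917 ± 0.533 CPM in TfhA and 2.79 ± 0.951 CPM in Tfh5. It was higher in Tfh5 than in either (log2 1.65 ± 0.45, adjusted p = 0.00265 against TfhA; log2 1.09 ± 0.38, adjusted p = 0.0151 against Th1), though the libraries overlapped. TfhA and Th1 gave log2 -0.56 ± 0.46, adjusted p = 0.337. Efna4 shares 168 exon bases with 4731419I09Rik on the other strand. The B-type ephrins Efnb1 (0 to 2.1 CPM over all libraries) and Efnb3 (0.19 to 1.36 CPM), whose proteins can costimulate T cells, passed in no comparison. Efnb2, which was outside the fit, ranged over 0.0761 to 1.62 CPM with 31, 25 and 41 counts over Th1, TfhA and Tfh5.

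Of the Eph receptors, Ephb6 was the one with appreciable counts. It encodes a receptor with an inactive kinase that is found on T cells and thymocytes. Ephb6 stood at 6.8, 4.71, 4.08, 3.61 and 3.43 CPM in the Th1 libraries. For Ephb6 in TfhA the values were 7.27, 6.83, 5.52 and 4.56 CPM, and in Tfh5 13.7, 10.8, 9.53, 15.9 and 12.4 CPM. Its Tfh5 libraries were above all others, 2.05-fold over TfhA (log2 1.03 ± 0.22, adjusted p = 0.000276) and 2.74-fold over Th1 (log2 1.46 ± 0.21, adjusted p = 1.12e-06). TfhA and Th1 overlapped (log2 0.42 ± 0.22, adjusted p = 0.134), and that difference was called without Th1 replicate 1 (log2 0.61, adjusted p = 0.0262; range over the alternatives 0.0262 to 0.329). Epha1 (0.378 to 2.75 CPM; 236 exon bases shared with Zyx on the other strand) and Epha2 (0 to 1.52 CPM), both receptors of A-type ephrins, passed in no comparison. Without Tfh5 replicate 1, Epha2 was called lower in Tfh5 than in TfhA (log2 -1.82, adjusted p = 0.0475; range 0.0475 to 0.549).

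Epha7 and Ephb2 did not pass the filter on low counts. Epha7, a receptor of A-type ephrins, was found in TfhA alone, at 0.455, 0.427, 1.08 and 0.425 CPM in its libraries, which is 25 counts against 0 in both other groups. Taking a floor of 3 counts over a group, that is at least 13.6-fold higher than in Th1 and at least 10.5-fold higher than in Tfh5. Ephb2, a receptor of B-type ephrins, had 25 counts over Th1, 1 over TfhA and 40 over Tfh5. The ratio to TfhA was 31.8 for Tfh5 (95% counting interval 5.39 to 1290) and 15.3 for Th1 (2.5 to 628). Its Tfh5 libraries held 0.286, 0.408, 1.51, 1.61 and 0 CPM, so they spread from none to the highest value of all.

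Levels of different genes were compared per length, as RPKM, with the exon lengths of the GENCODE annotation of the same build. Sema4d was first in all groups, at 59.1 RPKM in Th1, 78.5 RPKM in TfhA and 81.1 RPKM in Tfh5. In Th1 it was followed by Plxnc1 (40.0 RPKM), Sema4a (19.3 RPKM), Sema7a (14.9 RPKM), Sema4f (14.4 RPKM) and Sema3b (13.1 RPKM). The next in TfhA were Sema7a (17.7 RPKM), Nrp1 (12.2 RPKM), Sema4a (6.96 RPKM) and Plxnc1 (6.07 RPKM). In Tfh5 they were Sema7a (13.4 RPKM), Sema4f (7.55 RPKM), Nrp1 (6.03 RPKM), Sema6d (5.15 RPKM) and Ephb6 (3.31 RPKM).

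**Figure D3:**
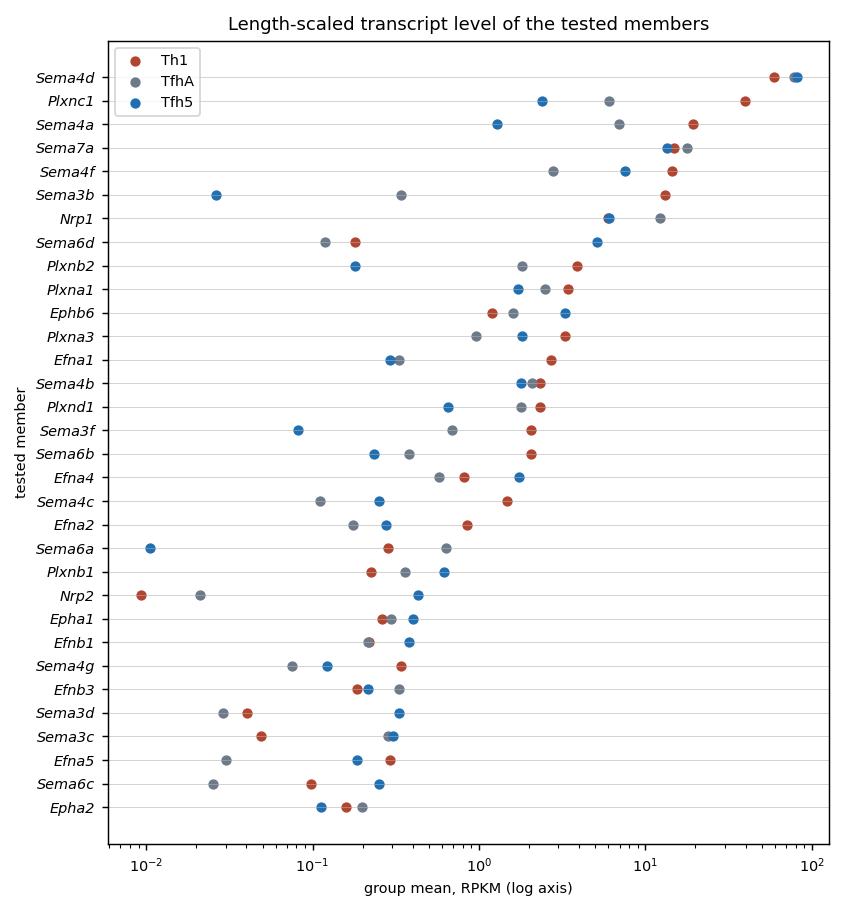
Group mean level in RPKM (x axis, log scale) of the 32 tested genes (y axis, ordered by their highest group mean), with 1 point for each of Th1, TfhA and Tfh5. Sema4d was first in each group, at 59.1, 78.5 and 81.1 RPKM, and the points of Sema3b and Sema6d lay far apart.

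Summed by family, the semaphorins overlapped between the groups, with 794.5 ± 51.8 CPM in Th1, 743 ± 51.3 CPM in TfhA and 789 ± 15.8 CPM in Tfh5 (mean ± SD), mostly Sema4d. The plexins came to 440.2 ± 25.2, 111 ± 12 and 62.2 ± 7.27 CPM in that order, and the neuropilins to 58.4 ± 1.83, 120.1 ± 7.74 and 64.1 ± 8.21 CPM. Ephrins summed to 11.1 ± 1.74, 4.39 ± 1.03 and 7.41 ± 1.70 CPM and Eph receptors to 7.03 ± 2.02, 8.86 ± 1.5 and 15.5 ± 2.22 CPM. The plexin sum followed Plxnc1, the neuropilin sum Nrp1 and the Eph sum Ephb6, the most abundant gene of each. These sums were not tested.

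**Figure D4:**
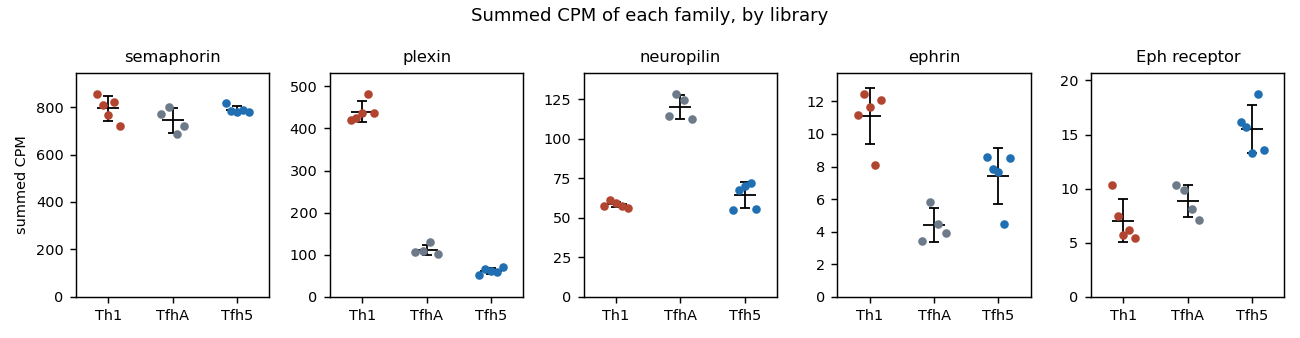
Summed CPM of each family (y axis, linear, from 0, own scale per family) in Th1, TfhA and Tfh5; points are libraries, bar and whiskers the mean ± SD. Plexin sums were highest in Th1 and lowest in Tfh5 (means of 440.2, 111 and 62.2 CPM in Th1, TfhA and Tfh5), and semaphorin sums of the groups overlapped.

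**Figure D5:**
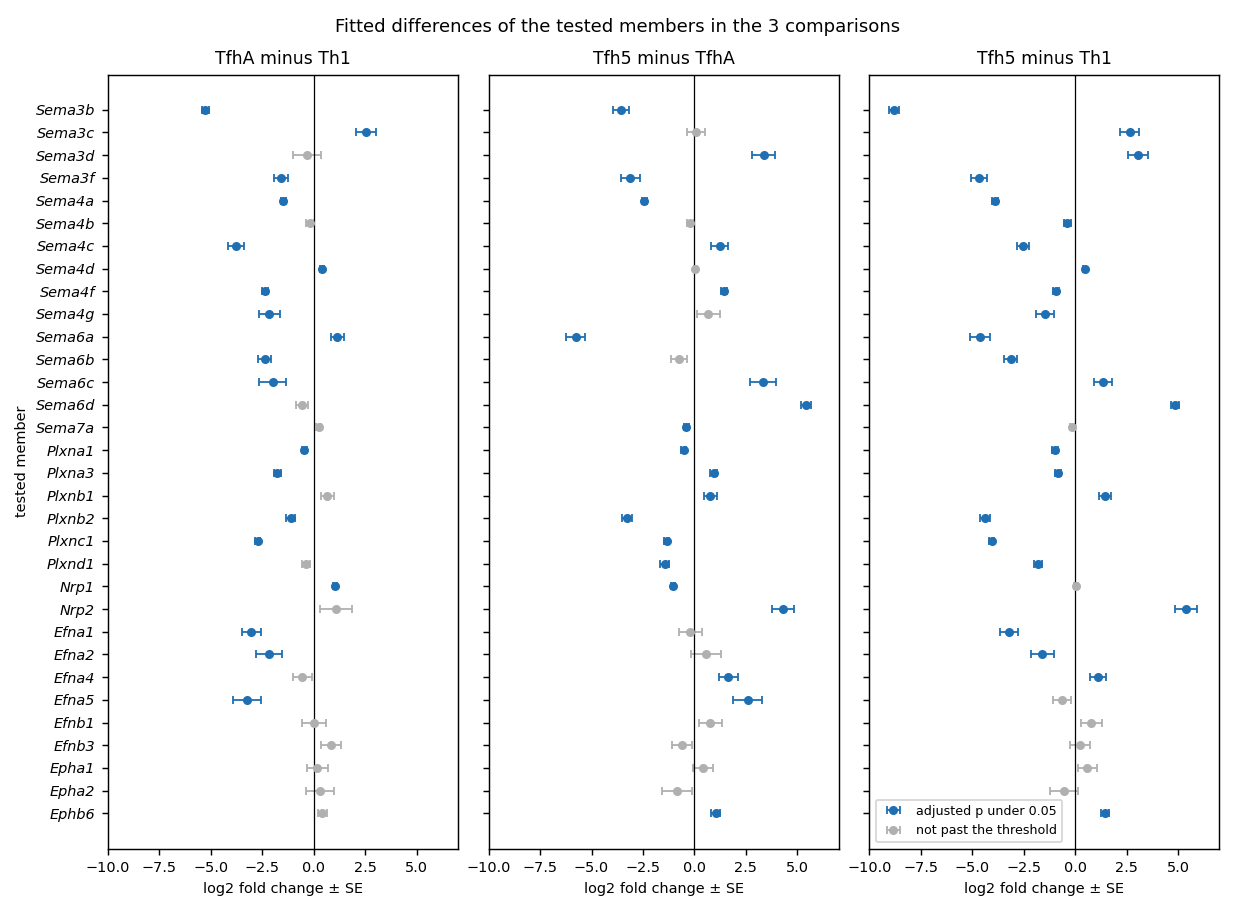
Fitted log2 fold change ± SE (x axis) of the 32 tested genes (y axis, by family) in the 3 comparisons, TfhA minus Th1, Tfh5 minus TfhA and Tfh5 minus Th1; blue points have an adjusted p under 0.05, grey points do not. Sema3b reached -8.82 in Tfh5 minus Th1 and Sema6d 5.42 in Tfh5 minus TfhA.

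Ligands and receptors of 36 known pairs were set side by side, counting a pair where both group means were at least 1 CPM. This held for 8 pairs in Th1, 9 in TfhA and 12 in Tfh5. Sema7a with Plxnc1, Sema4d with Plxnb1 and Plxnb2, Sema4a with Plxnb1, Plxnb2 and Plxnd1, and Sema6d with Plxna1 met the level in all groups. Of the 6 listed pairs with a neuropilin, those that met it were Sema3c with Nrp1 in TfhA and Tfh5, and Sema3c with Nrp2 and Sema3d with Nrp1 in Tfh5. The list is not complete. It pairs Sema3b with Nrp2 alone, although Sema3b and Nrp1 stood at 62.5 and 58.2 CPM in Th1, so a pair of these would have met the level there. Sema4g with Plxnb2 and Sema3c with Plxnd1 were not on it either. Sema4c with Plxnb2 met it in Th1 and Tfh5, Efnb3 with Ephb6 in TfhA and Efnb1 with Ephb6 in Tfh5. At 2 CPM the counts were 7, 7 and 8. The levels within a pair moved apart in places: Sema7a stayed between 44.2 and 58.4 CPM in group mean while Plxnc1 went from 334 CPM in Th1 to 19.9 CPM in Tfh5. Sema6d rose to 54.4 CPM in Tfh5 where Plxna1 was lowest, at 15.6 CPM. Both genes of a pair were measured in the same cells, and whether their proteins met was not measured.

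Of 24 other partners of semaphorins and neuropilins, 15 were tested. In Tfh5 against TfhA, 5 were higher (33.3%) and 6 lower (40%), in TfhA against Th1, 3 were higher (20%) and 8 lower (53.3%), and in Tfh5 against Th1, 3 were higher (20%) and 11 lower (73.3%). The median log2 fold changes were -0.29, -0.66 and -1.20. Over all tested genes, 27.4% were higher and 30.1% lower in the first comparison, 23.2% and 21.6% in the second and 31.5% and 33% in the third, with medians of -0.01, 0.03 and -0.01. Lilrb4a, an inhibitory receptor of a family with a human member that binds SEMA4A, had 323 ± 34.7, 148 ± 37.4 and 2.91 ± 1.43 CPM in Th1, TfhA and Tfh5. It fell at each step (log2 -1.13 ± 0.17, adjusted p = 6.93e-06 in TfhA minus Th1; log2 -5.64 ± 0.22, adjusted p = 1.25e-16 in Tfh5 minus TfhA). Furin, the protease that cleaves secreted semaphorins, had 792 ± 86.5, 48.3 ± 7.51 and 245 ± 37.1 CPM. It was lower in TfhA than in Th1 (log2 -4.03 ± 0.14, adjusted p = 2.9e-17) and higher in Tfh5 than in TfhA (log2 2.34 ± 0.13, adjusted p = 5.79e-14). Cd72, a Sema4d receptor known from B cells, had 0.476 ± 0.211, 0.317 ± 0.384 and 11.4 ± 1.75 CPM. It rose in Tfh5 (log2 5.19 ± 0.43, adjusted p = 2.15e-10 against TfhA; log2 4.55 ± 0.35, adjusted p = 3.47e-11 against Th1). Without TfhA replicate 5 its fold over TfhA was 73.5 in place of 36.6 (adjusted p = 6.42e-11; range 1.43e-27 to 8.85e-09). Its level in TfhA was then called lower than Th1 (log2 -1.65, adjusted p = 0.046; range 0.046 to 0.749). Timd2, a Sema4a receptor in the mouse, had 5.51 ± 1.16, 15.1 ± 3.08 and 1.59 ± 0.455 CPM. It was highest in TfhA (log2 1.45 ± 0.21, adjusted p = 4.58e-06 over Th1; log2 -3.24 ± 0.24, adjusted p = 2.94e-11 in Tfh5). Vegfa, the growth factor that binds neuropilins, fell from Th1 to Tfh5 (log2 -2.20 ± 0.12, adjusted p = 2.14e-14). The integrin chain Itgav was lower in TfhA than in Th1 (log2 -1.12 ± 0.15, adjusted p = 1.16e-06).

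Of 40 plexin effectors, 35 were tested. In Tfh5 against TfhA, 12 were higher (34.3%) and 8 lower (22.9%), in TfhA against Th1, 7 were higher (20%) and 10 lower (28.6%), and in Tfh5 against Th1, 11 were higher (31.4%) and 14 lower (40%). The median log2 fold changes were -0.01, -0.15 and -0.14. These shares stand beside the 27.4% and 30.1%, 23.2% and 21.6%, and 31.5% and 33% of all tested genes. Crmp1, a collapsin response mediator, had 31.1 ± 4.46, 27.8 ± 6.4 and 121 ± 15.3 CPM in Th1, TfhA and Tfh5. It was higher in Tfh5 (log2 2.12 ± 0.14, adjusted p = 4.05e-12 against TfhA; log2 1.96 ± 0.13, adjusted p = 1.49e-12 against Th1), as was the guanine nucleotide exchange factor Farp2 (log2 1.71 ± 0.38, adjusted p = 0.000458; log2 1.97 ± 0.35, adjusted p = 2.79e-05). Mical1, an oxidase acting on actin, was higher in Tfh5 than in TfhA (log2 1.34 ± 0.13, adjusted p = 2.08e-09). The tyrosine kinase Fes had 17 ± 1.74, 0.527 ± 0.376 and 2.11 ± 0.717 CPM. It was lowest in TfhA (log2 -4.89 ± 0.31, adjusted p = 3.28e-12 against Th1; log2 1.88 ± 0.35, adjusted p = 7.22e-05 in Tfh5 against TfhA; log2 -3.01 ± 0.23, adjusted p = 3.07e-11 in Tfh5 against Th1). Without TfhA replicate 1 the first of these was 45.8-fold in place of 29.6-fold, and the second was 5.69-fold in place of 3.68-fold (adjusted p = 1.08e-11 and 1.12e-05; ranges 1.29e-42 to 7.86e-11 and 1.65e-06 to 0.00233). The small GTPases Rhod (log2 -1.87 ± 0.29, adjusted p = 1.22e-05) and Rras (log2 -1.23 ± 0.18, adjusted p = 4.22e-06) and the cofilin phosphatase Ssh1 (log2 -0.93 ± 0.21, adjusted p = 0.000734) were lower in TfhA than in Th1, and Rhod was also lower in Tfh5 (log2 -2.23 ± 0.28, adjusted p = 1.66e-07).

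Of 38 Eph and ephrin effectors, 30 were tested. In Tfh5 against TfhA, 9 were higher (30%) and 8 lower (26.7%), in TfhA against Th1, 6 were higher (20%) and 9 lower (30%), and in Tfh5 against Th1, 11 were higher (36.7%) and 11 lower (36.7%). The median log2 fold changes were 0.01, -0.03 and -0.08. All tested genes had 27.4% and 30.1%, 23.2% and 21.6%, and 31.5% and 33%. Rasa1, a Ras GTPase-activating protein, had 74.8 ± 10.3, 167 ± 33.4 and 494 ± 28.8 CPM in Th1, TfhA and Tfh5. It rose at each step (log2 1.16 ± 0.12, adjusted p = 1.58e-08 in TfhA minus Th1; log2 1.57 ± 0.12, adjusted p = 4.48e-11 in Tfh5 minus TfhA). The kinase Src had 2.75 ± 0.739, 0.587 ± 0.138 and 9.45 ± 1.76 CPM. It was lowest in TfhA (log2 -2.23 ± 0.33, adjusted p = 5.05e-06) and highest in Tfh5 (log2 1.79 ± 0.23, adjusted p = 1.84e-07 against Th1). Vav2, a signalling protein downstream of Eph receptors, had 19.2 ± 1.94, 16.3 ± 1.59 and 3.21 ± 1.02 CPM. It fell in Tfh5 (log2 -2.32 ± 0.19, adjusted p = 9.99e-11 against TfhA; log2 -2.56 ± 0.18, adjusted p = 4.14e-12 against Th1). The lipid phosphatase Inppl1 was lower in Tfh5 than in Th1 (log2 -1.65 ± 0.16, adjusted p = 2e-09). The exchange factor Tiam1 (log2 1.53 ± 0.10, adjusted p = 8.17e-12) and the Rac regulator Chn2 (log2 1.42 ± 0.28, adjusted p = 0.000257) were higher in TfhA than in Th1, and Chn2 was lower again in Tfh5 (log2 -1.86 ± 0.30, adjusted p = 9.02e-06).

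Among 36 genes of the netrin, slit and RGM guidance systems, 13 were tested. In Tfh5 against TfhA, 5 were higher (38.5%) and 4 lower (30.8%), in TfhA against Th1, 4 were higher (30.8%) and 3 lower (23.1%), and in Tfh5 against Th1, 7 were higher (53.8%) and 4 lower (30.8%). The median log2 fold changes were -0.08, 0.46 and 0.40. The shares of all tested genes were 27.4% and 30.1%, 23.2% and 21.6%, and 31.5% and 33%. The slit-robo GTPase-activating proteins differed from one another. Srgap1 had 0.662 ± 0.271, 0.646 ± 0.519 and 41.8 ± 6.21 CPM in Th1, TfhA and Tfh5. It was higher in Tfh5 (log2 5.92 ± 0.29, adjusted p = 6.86e-15 against TfhA; log2 5.94 ± 0.25, adjusted p = 1.87e-16 against Th1). The fold over TfhA was 60.5, and 94.1 without TfhA replicate 2 (adjusted p = 4.05e-15; range 2.09e-77 to 8.42e-13). Srgap3 had 12.6 ± 1.69, 73 ± 13.7 and 41.1 ± 12.5 CPM. It was highest in TfhA (log2 2.53 ± 0.17, adjusted p = 1.64e-11 over Th1; log2 -0.83 ± 0.16, adjusted p = 0.000135 in Tfh5). Srgap2 was lower than in Th1 in both follicular helper cultures (log2 -0.53 ± 0.09, adjusted p = 2.8e-05 in TfhA; log2 -0.60 ± 0.08, adjusted p = 7.7e-07 in Tfh5). Rgmb, a co-receptor for bone morphogenetic proteins, was higher in Tfh5 (log2 2.41 ± 0.31, adjusted p = 3.8e-07 against TfhA; log2 2.87 ± 0.29, adjusted p = 4.63e-09 against Th1). Rtn4, which encodes the myelin inhibitor Nogo, was higher in Tfh5 than in TfhA (log2 0.65 ± 0.09, adjusted p = 1.09e-06) and lower in TfhA than in Th1 (log2 -0.26 ± 0.09, adjusted p = 0.0228). The latter call was lost without TfhA replicate 1 or 2 (log2 -0.23 and -0.21, adjusted p = 0.0732 and 0.0826; range 0.00793 to 0.0826).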

How the data were processed

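The deposited table holds unscaled read counts for 27179 Entrez identifiers. Per the submitters' processing notes, the tools were STAR 2.7.2b, an aligner, and featureCounts 1.6.4, a read counter, and the genome build was mm10. Strand setting, gene annotation and treatment of multi-mapping reads: not given in the sources used here. Counts of 14 libraries (5 Th1, 4 TfhA, 5 Tfh5) entered one fit in edgeR 4.0.16 under R 4.3.3 with TMM scaling, filterByExpr (13075 of 27179 genes) and no covariate. The quasi-likelihood F test was two-sided with Benjamini-Hochberg adjustment over all tested genes, and a gene was called at an adjusted p under 0.05. The SE is the log2 fold change divided by the square root of F. RPKM divide CPM by the union exon length in GENCODE vM21, which has 53 of the 54 members; promoters are from RefSeq, which has 47. DESeq2 1.42.0 served for alternatives. The procedure was tested on simulated counts in which few genes, all with means of at least 1 CPM, were changed in Tfh5 alone. That run does not cover genes under 1 CPM or data in which many genes differ. Libraries of one group differed beyond counting noise (chi-square per degree of freedom 4.15 to 30.6 over 26 pairs within groups), and the common biological coefficient of variation was 14.2%.

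All members reaching 1 CPM were named; those with a group mean of at least 10 CPM or a called difference of at least 4-fold were given by library, and from each pathway list up to 4 called genes per comparison with a group mean of at least 5 CPM. The members, the lists, the pairs and the motifs were chosen with earlier results of these data known. Alternatives were DESeq2 size factors, the DESeq2 Wald test, no filter, a replicate block, fits of only 2 groups and the omission of each library.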

Additional observations from a re-analysis of the deposited data

Results flagged for a closer look

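A library was picked out when it stood apart from the rest of its group by Dixon's test, applied to 178 groups of libraries (108 of them of the 36 named genes); 8 were picked out, 4 of them of the named genes, and chance alone picks out about 1 group in 20. Sema6a was at 3.40 CPM in Th1 replicate 3, against 2.21 to 2.37 CPM in the other Th1 libraries. Plxna3 was at 20.6 CPM in Tfh5 replicate 5, against 11.8 to 13.7 CPM. Epha7 was at 1.08 CPM in TfhA replicate 4, against 0.425 to 0.455 CPM, and it is this library that brings Epha7 over 1 CPM. Ephb2 was at 0.0757 CPM in TfhA replicate 1, a single count, against 0 in the others. Among the pathway genes, Vegfa stood at 43.4 CPM in TfhA replicate 4 (38.0 to 38.6 CPM in the others), Ssh1 at 44.3 CPM in Th1 replicate 1 (35.3 to 37.9 CPM), Chn2 at 10.1 CPM in TfhA replicate 2 (5.85 to 6.47 CPM) and Srgap3 at 15.5 CPM in Th1 replicate 2 (11.2 to 12.4 CPM).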

How the results depend on the processing

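The numbers of called members stayed within 1.5 times their main values in every alternative: 19 to 24 between Tfh5 and TfhA (main 21), 18 to 21 between TfhA and Th1 (main 19) and 24 to 26 between Tfh5 and Th1 (main 25). Leaving out single libraries gave 20 to 22, 18 to 20 and 24 to 26. These ranges count all 36 genes, and some alternatives also tested members that the filter on low counts had left out. Over the 32 tested genes alone they were 19 to 22, 18 to 20 and 24 to 25, also when single libraries were left out. Without the filter and with DESeq2, Sema3a and Epha7 were called lower and Ephb2 higher in Tfh5 than in TfhA (adjusted p = 0.0007 to 0.00602). Epha7 was then called higher and Ephb2 lower in TfhA than in Th1 (0.000506 to 0.0205), and Sema3a lower in Tfh5 than in Th1. Sema3a was also called in Tfh5 against both groups without TfhA replicate 1, 2 or 5 (over these alternatives, adjusted p = 0.00204 to 0.0132 against TfhA and 0.000425 to 0.00158 against Th1). Of the 96 comparisons of the 32 genes, 17 changed call or sign in at least 1 alternative, and the calls lost or gained are given with their genes. Same-numbered libraries shared little deviation: of 13 same-numbered pairs, 1 had a correlation of deviations over 0.1 (range -0.0696 to 0.189), and 4 of 14 libraries correlated best with their own number. The highest correlation between groups, 0.388, joined Th1 replicate 1 and TfhA replicate 2. Low correlations cannot show whether libraries had an animal or a culture in common. With the replicate block, 21, 19 and 24 members were called. Signs changed only for log2 differences that did not pass, and the causes were not tested. When single libraries were left out, Efna1 in Tfh5 minus TfhA ranged from -0.569 to 0.266, Sema3c there from -0.0708 to 0.290 and Sema4d there from -0.00644 to 0.0982. Nrp1 in Tfh5 minus Th1 ranged from -0.0255 to 0.0768. In TfhA minus Th1, the ranges were -0.447 to 0.389 for Efnb1, -0.0213 to 0.547 for Epha1, -0.868 to 0.0142 for Sema3d, -0.0421 to 0.621 for Rgmb and -0.616 to 0.270 for Srgap1. With the block, Sema3c in Tfh5 minus TfhA was -0.0802, Efnb1 in TfhA minus Th1 was -0.118 and Srgap1 there was -0.00289. Without the filter, Efnb1 and Srgap1 in TfhA minus Th1 were -0.0249 and -0.0125, and Nrp1 in Tfh5 minus Th1 was -0.00543. Efnb1 in TfhA minus Th1 was also -0.0102 with DESeq2 and -0.000886 with only these groups fitted. Efna1, Efnb1, Sema3d and Srgap1 had means under 1 CPM in the groups compared, where few counts limit the precision. Sema4d and Nrp1 were abundant, with means there of at least 603 and 58.2 CPM. Their fitted differences lay near 0 (log2 0.05 ± 0.09 and 0.02 ± 0.09).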

Other observations

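Sema3b and Sema3f, tested secreted semaphorins that were highest in Th1 and lowest in Tfh5, lie on the minus strand of chromosome 9 in mm10 (positions 107597674 to 107609229 and 107681500 to 107710475), 72270 bases apart. The 3 protein-coding genes between them were looked up after these values had been seen. Slc38a3, an amino acid transporter gene, had a mean of 7.24 ± 0.458 CPM (SD, n = 5) in Th1 and no count in any TfhA or Tfh5 library, which is at least 105-fold and 132-fold lower taking 3 counts over the group as the floor. Gnat1, the rod transducin gene, had 60 counts over Th1, 7 over TfhA and 0 over Tfh5 and was not tested. Gnai2, an inhibitory G protein subunit abundant in lymphocytes, had 899, 712 and 766 CPM in group mean and was lower in TfhA (log2 -0.34 ± 0.10, edgeR's adjusted p = 0.00808) and in Tfh5 (log2 -0.23 ± 0.09, adjusted p = 0.0339) than in Th1. Other members lie near each other too, among them Efna1, Efna3 and Efna4 on chromosome 3, and Sema3d, Sema3a and Sema3e on chromosome 5. These neighbours did not share an order of the groups. Efna1 had its highest mean in Th1 (4.99 CPM) and Efna4 in Tfh5 (2.79 CPM). Sema3d was highest in Tfh5 (2.85 CPM), where Sema3e had no count. Sema3a, outside the fit, had the order of Sema3b and Sema3f, with means of 0.709, 0.527 and 0.0379 CPM in Th1, TfhA and Tfh5.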
